A study of Mus musculus with 8 samples.

Results

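The genes described here encode the proteasome, the barrel-shaped protease that degrades ubiquitin-tagged proteins in the cytosol and nucleus. They were taken by name: every gene whose symbol on the array begins with Psma, Psmb, Psmc, Psmd, Psme, Psmf or Psmg followed by a digit, apart from the 3 inducible immunoproteasome subunits Psmb8, Psmb9 and Psmb10, which are given separately. The rule found 46 of the 34947 names on the array, read by 58 probes. Of these names, 44 are proteasome subunits, activators, inhibitors or assembly factors. The other names are Psmc3ip, a cofactor of meiotic recombination that shares only the prefix, and Psme2b, a retrocopy of the activator gene Psme2. A total of 42 of the 44 could be tested, among the 18073 genes or transcripts tested in all, and these 42 were well above background on all 8 arrays. The remaining ones, the testis alpha subunit Psma8 and the thymus beta subunit Psmb11, were well above background on 0 arrays.

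The series measured RNA in B16 cells, a mouse melanoma line, with 2 biological replicates for each of 4 groups. The groups were control cells labelled 0 h, cells given the secreted semaphorin SEMA3E for 2 h, cells given SEMA3E for 8 h, and cells given cytochalasin D, which blocks actin filament growth, for 8 h. All were kept in high-glucose medium with fetal bovine serum, and the labels name no genotype, dose or vehicle; the source field calls the control non-targeted without saying more. The study's title asks which transcripts SEMA3E changes through its receptor plexin D1. Because the control is labelled 0 h, time in culture is not matched in a comparison of an 8 h group with it, and treatment and time cannot be told apart there. Nothing beyond the words biological replicate says how the cultures were separated, so every p-value measures the spread between these arrays.

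The proteasome joins a 20S core particle to a 19S regulatory particle. The core is a stack of rings in which alpha subunits guard the entrance and beta subunits face the cavity, and of the latter Psmb5, Psmb6 and Psmb7 carry the chymotrypsin-like, caspase-like and trypsin-like sites. The regulatory particle binds ubiquitin chains, removes them, and unfolds the substrate with a ring of ATPases. Subunits are made in near-fixed proportions and dedicated chaperones assemble them, and tumour cells such as melanoma lines depend strongly on the complex.

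Each value below is the log2 of the array's processed signal minus the 75th percentile of that array over probes well above background on all arrays, so 0 is that percentile and a difference of 1 is 2-fold. Levels of different probes cannot be compared with one another, since each probe has its own brightness; differences can. A difference is given as log2 ± SE from limma fitted to all genes, and a gene is called changed at an adjusted p under 0.05. Before scaling, 3 arrays were dim: the 75th percentile of the signal was 59.3 on SEMA3E 2 h replicate 1, 61.1 on its replicate 2, 66.8 on cytochalasin D replicate 2 and between 111 and 154 elsewhere. All 8 arrays came from 1 slide with each group in adjacent positions, so a group's treatment and its position cannot be told apart. All 7 melanocyte markers checked were well above background on all 8 arrays. Of 13 markers of fibroblasts, immune, epithelial and endothelial cells, 5 were well above background on all arrays, with values up to -3.25 (Cd68), and Pdgfra, Krt8, Krt18 and Cdh5 were above background on 0 arrays. The controls were not each other's closest array: across genes, control replicate 2 had a correlation of 0.974 with its own replicate and of 0.993 with a cytochalasin D array, replicate 1.

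Proteasome transcripts spread little across the 4 groups, and 0 of them were called changed. Over all 8 arrays the 42 genes spanned a median range of 0.82 log2 units, against 1.03 for all genes above background on every array. These sets were not matched for brightness: 12 of the 42 had mean levels above 3, beside 624 of the 18073 genes tested. Whether the range was small for genes of like brightness was not tested. The narrowest as measured was the beta subunit Psmb1, which stayed between 1.76 and 1.90, a range of 0.14. A spot of its probe on SEMA3E 2 h replicate 2 lay in a dim area of that array, described below. With that spot missing, the array read 2.09 and the other arrays between 1.83 and 1.96 on the scale of that fit. In each of the 5 comparisons limma called 0 of the 42 genes at an adjusted p under 0.05. Over all genes tested it called 0% at SEMA3E 2 h against control, 0.00553% at SEMA3E 8 h against control, 0% at cytochalasin D against control, 0.00553% at cytochalasin D against SEMA3E 8 h and 0% at SEMA3E 8 h against 2 h. At an unadjusted p under 0.05 the genes numbered 3, 0, 0, 1 and 4 of 42 in the same order, beside 9.47%, 6.14%, 2.44%, 11% and 11.6% of all genes. The smallest adjusted p among them was 0.411. With 2 arrays a group the 95% interval of a difference reached a median of 0.66 to either side, so that in the 5 comparisons in turn 23, 30, 29, 25 and 21 of the 42 intervals lay inside 2-fold in both directions, and the others did not.

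**Figure D1:**
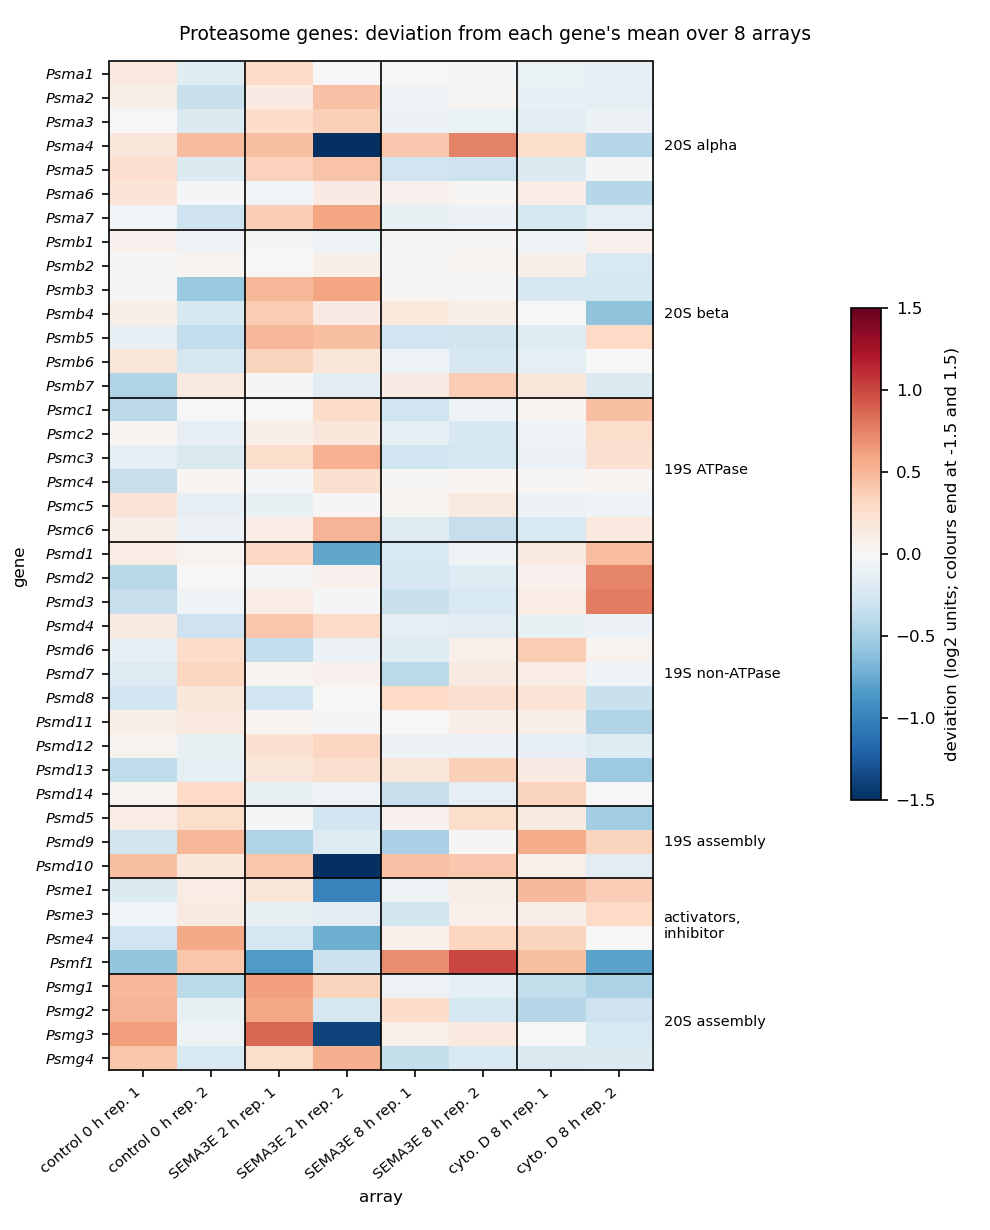
Each row is a proteasome gene and each column an array; colour gives the log2 deviation from the gene's mean over 8 arrays, with colours ending at -1.5 and 1.5. Most rows are pale; the darkest cells, Psma4, Psmd10 and Psmg3, are all in SEMA3E 2 h replicate 2.

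Most gaps of over 2-fold between replicates came from 1 array and 1 place on it. Of the 42 genes, 5 lay over 2-fold apart between the SEMA3E 2 h replicates: Psma4, an alpha subunit, Psmd1, the large scaffold subunit of the regulatory particle, Psmd10, a chaperone of its ATPases, Psme1, a subunit of the PA28 activator, and Psmg3, a chaperone of the alpha ring. That was 11.9% of them, beside 14.1% of all genes tested and 9.15% of those above background on every array. Between the controls 0 were, beside 14.3% of all genes, between the SEMA3E 8 h arrays 0 were, and between the cytochalasin D arrays 1 was, the inhibitor Psmf1. All 5 read lower on SEMA3E 2 h replicate 2. Psma4 read 0.32 and 0.62 in control, 0.60 and -1.94 with SEMA3E for 2 h, 0.55 and 0.89 for 8 h, and 0.41 and -0.28 with cytochalasin D. Psmd10 read -1.63 and -1.91 in control, -1.67 and -3.86 with SEMA3E for 2 h, -1.64 and -1.68 for 8 h, and -2.0 and -2.24 with cytochalasin D. In both genes SEMA3E 2 h replicate 2 was the lowest of the 8 arrays, over 1.5 log2 units under the next.

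These spots shared a dim area of that array. For each spot, the median shift of the surrounding spots of other probes, relative to the other 7 arrays, was taken over a window of 5 rows and columns to either side. On SEMA3E 2 h replicate 2 the shift was below -0.5 around 11.3% of spots, against 0% to 0.397% on each of the other arrays. Most of these spots formed 1 oval between rows 140 and 278 and columns 64 and 110 of an array of 384 rows and 164 columns; in that rectangle 91.1% of 6362 spots were in such surroundings, and outside it 2.11%. The spot of Psma4 had shifted by -2.55 and its neighbours by -2.39. The spot of Psmd10 had shifted by -2.04 and its neighbours by -1.54, and that of Psmg3 by -1.47 and its neighbours by -2.5. Psmd1 had shifted by -0.99 beside neighbours at -1.11. Psme1 had 2 spots, and the one in the area had shifted by -2.46 beside neighbours at -2.08. In all, 10 of the 71 spots that read these genes were in such surroundings, and 4 of the 42 genes tested, 9.52%, depended on such a spot alone, beside 9.9% of all genes tested.

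**Figure D2:**
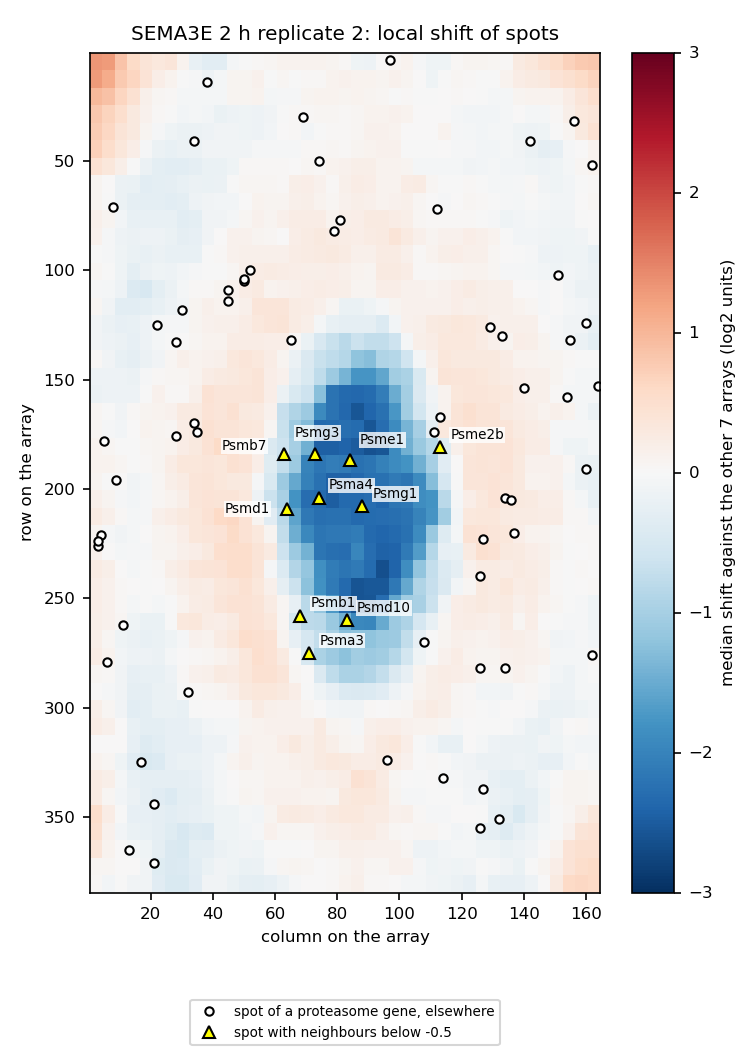
The array of SEMA3E 2 h replicate 2 seen by row and column; colour gives the median log2 shift of spots in small blocks against the other 7 arrays, circles are spots of proteasome genes and yellow triangles those whose neighbours had shifted below -0.5. The triangles ring or fill the dark oval, which covers rows 140 to 278 and columns 64 to 110.

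Psma4 and Psmd10 each have another probe elsewhere on the array, and those probes read differently. The first 30 of 60 bases of each probe are shown, since the probes of a gene share runs of no more than 4 and 7 bases respectively and therefore read separate stretches of its transcript.
Psma4, probe in the dim area: tgtgtgatatcaaacaggcgtacacacagt
Psma4, other probe: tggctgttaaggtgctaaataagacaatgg
Psmd10, probe in the dim area: gttctacaaagcatccacaaacatccaaga
Psmd10, other probe: ttgtatttcaagtactacagacctggattt
The other Psma4 probe read -0.23 and -0.59 in control and -0.77 and -0.56 with SEMA3E for 2 h, a difference of -0.26 in place of -1.14 ± 0.73 (adjusted p = 0.609 by limma). The other Psmd10 probe read -2.63 and -2.78 in control and -3.04 and -2.60 with SEMA3E for 2 h, a difference of -0.12 in place of -0.99 ± 0.62 (adjusted p = 0.601). By these probes the SEMA3E 2 h arrays overlapped the controls in both genes. With spots in shifted surroundings set to missing, an alternative chosen after seeing the data, 7 arrays were left for Psma4, Psmd10, Psmg3 and Psmd1. Psma4 then differed from control by 0.12 ± 0.40, Psmd10 by 0.10 ± 0.31, Psmg3 by 0.58 ± 0.38 and Psmd1 by 0.22 ± 0.31. The single SEMA3E 2 h array left for each was assumed to vary like the other groups.

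After 2 h of SEMA3E the core subunits leaned higher than in control, most of all in the genes with bright probes, and no gene was called. The median difference was 0.31 over the 14 core subunits and 0.23 over the 17 regulatory subunits, beside 0.12 over all 42 proteasome genes and 0.06 over all genes tested. Of the core subunits 11 of 14 were above 0 and of the regulatory subunits 10 of 17, beside 54.9% of all genes. The arrays of both groups did not overlap, with SEMA3E higher, for 16 of the 42 genes, beside 24.5% of all genes, and with SEMA3E lower for 4, beside 15.2%. Among the core subunits these were 8 higher and 0 lower, Psma2, Psma3, Psma5, Psma7, Psmb3, Psmb4, Psmb5 and Psmb6. With the spots in shifted surroundings missing, the median was 0.28 over the core, with 12 of 14 above 0, 0.18 over the regulatory particle and 0.18 over all 42. The controls weighed on these values: without control replicate 1 the core lay at 0.50 and the regulatory particle at 0.0844, and without control replicate 2 at 0.14 and 0.21. With each gene's probes averaged, or with the deposited table, the regulatory median turned to -0.0185 or -0.0856, while the core stayed at 0.31 or 0.24.

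Psmb5, the chymotrypsin-like site, read 4.10 and 3.85 in control and 4.72 and 4.67 with SEMA3E for 2 h. The SEMA3E arrays were both higher, a difference of 0.72 ± 0.27 (95% interval 0.09 to 1.35, limma unadjusted p = 0.0308, adjusted p = 0.518). Its other probe, of lower brightness, read 1.91 and 1.8 in control against 2.27 and 2.37, a difference of 0.47. Psmb3, a structural beta subunit, read 3.19 and 2.64 against 3.70 and 3.80, a difference of 0.83 ± 0.27 (adjusted p = 0.508), and lay at 0.56 when control replicate 2 was left out. Psma7, an alpha subunit, read 3.42 and 3.15 against 3.84 and 4.05, a difference of 0.66 ± 0.25 (adjusted p = 0.518). These 3 were the genes with an unadjusted p under 0.05, and in each the SEMA3E arrays did not overlap the controls. The caspase-like subunit Psmb6 read 3.06 and 2.63 against 3.22 and 3.06, a difference of 0.30 ± 0.27. The trypsin-like subunit Psmb7 read 0.53 and 1.12 against 1.0 and 0.81 and differed by 0.08 ± 0.31, so that its groups overlapped. A spot of its probe lay in shifted surroundings on SEMA3E 2 h replicate 2, shifted by -0.97 beside neighbours at -0.61. With that spot missing Psmb7 differed by 0.34 ± 0.30. Its SEMA3E arrays then read 1.04 and 1.37 against 0.57 and 1.17 on the scale of that fit, so they still overlapped the controls.

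In the regulatory particle the ATPase ring had a median of 0.28, with 5 of 6 above 0, and the 11 non-ATPase subunits a median of -0.02. With the dim area's spots missing these were 0.22 and 0.17, with 5 of 6 and 6 of 11 above 0. The ATPase Psmc3 read 3.79 and 3.71 in control and 4.20 and 4.45 with SEMA3E, a difference of 0.57 ± 0.25 (adjusted p = 0.518). Psmd4, the subunit that binds ubiquitin chains, read 3.60 and 3.16 against 3.88 and 3.75, a difference of 0.43 ± 0.26. Psmd14, the enzyme that cuts the chain off the substrate, read 1.85 and 2.11 against 1.70 and 1.73, a difference of -0.27 ± 0.26. The groups were apart for all 3, with Psmd14 lower and the others higher. Psme4, the nuclear activator PA200, read -2.72 and -1.86 against -2.69 and -3.16, a difference of -0.64 ± 0.36 (adjusted p = 0.569) with overlapping arrays. That value ran from -1.06 to -0.21 with 1 array left out, and the other Psme4 probe differed the opposite way, by 0.49.

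The lean of the core followed probe brightness, as it did across the genome. Among all genes the median difference at 2 h was 0.08 at mean levels from 0 to 2, 0.21 from 2 to 3 and 0.39 above 3, where 89.1% of 624 genes were above 0. The 12 proteasome genes above a level of 3 had a median of 0.41 with 11 above 0; the 5 core subunits among them lay at 0.66 and the 7 regulatory subunits at 0.25. The 16 proteasome genes from 0 to 2 had a median of -0.09, with 4 above 0. With the median of all probes as the scale, which moved the median of all genes from 0.06 to -0.53, the core lay at -0.28 and so still above it, but on the other side of 0. Quantile normalization, which forces the arrays to 1 distribution of brightness, brought the core median to 0.05, the median of all 42 to -0.11 and Psmb5 to 0.26, Psmb3 to 0.48 and Psma7 to 0.29. Both SEMA3E 2 h arrays were among the 3 dimmest by the 75th percentile of all spots, and the part of that in the difference was not tested.

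**Figure D3:**
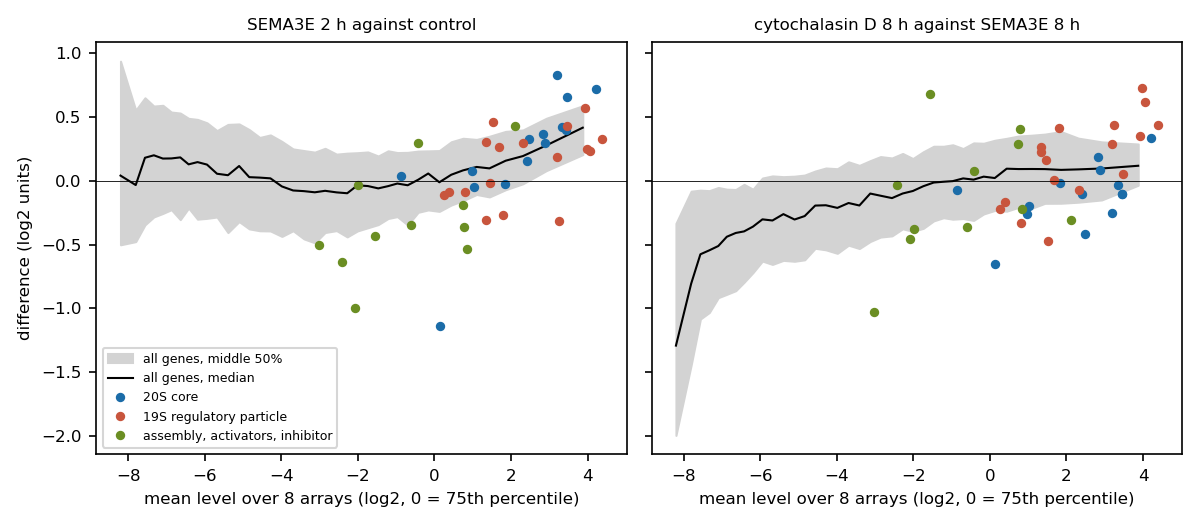
Difference (log2) against the mean level over 8 arrays for SEMA3E 2 h against control and for cytochalasin D against SEMA3E 8 h; points are proteasome genes, the line and band the median and middle 50% of all genes. At 2 h the line climbs to the right and the core points with the highest levels climb with it, with Psma4 at -1.14 the lowest point.

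After 8 h of SEMA3E proteasome genes lay close to control. The median difference was -0.03 over the 42, 0.02 over the core and -0.08 over the regulatory particle, beside 0.12 over all genes. Of the 42, 18 were above 0, beside 63.4% of all genes, a share that differed with level. It was 72% below a level of -2, where 3 of the 42 lay. It was 52.4% from -2 to 0, 47.7% from 0 to 2, 50.1% from 2 to 3 and 59% above 3, where 5, 16, 6 and 12 of them lay. From the dimmest level to the brightest, 3, 0, 8, 2 and 5 of the proteasome genes were above 0. With the median of all probes as the scale, the 42 lay at -1.19 and all genes at -1.04. The groups did not overlap, with SEMA3E higher, in 3 of the 42, beside 25.1% of all genes, and with SEMA3E lower in 7, beside 12.3%. The catalytic subunit Psmb5 read 3.93 and 3.95 with SEMA3E, between the controls' 4.10 and 3.85, a difference of -0.04 ± 0.27 (95% interval -0.67 to 0.59). Psmb6 read 2.81 and 2.64, a difference of -0.12 ± 0.27, and Psmb7 1.1 and 1.35, a difference of 0.40 ± 0.31 that was 0.11 when control replicate 1 was left out. Psma5, an alpha subunit, read 3.09 and 2.62 in control and 2.54 and 2.53 with SEMA3E, a difference of -0.32 ± 0.27 that was -0.09 without control replicate 1. Controls that lay apart from each other thus set the size of several of these differences.

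In the regulatory particle Psmd14 read 1.46 and 1.65 with SEMA3E for 8 h, under both controls, a difference of -0.42 ± 0.26 (adjusted p = 0.870). Psmd13, a lid subunit, read 1.69 and 1.88 against 1.14 and 1.40 in control, a difference of 0.52 ± 0.30, with both arrays higher. Psmd4 differed by -0.07 ± 0.26. Psmf1, the proteasome inhibitor PI31, had the largest difference of all 42 in this comparison. It read -3.60 and -2.60 in control and -2.32 and -2.01 with SEMA3E for 8 h, a difference of 0.94 ± 0.50 (adjusted p = 0.851). The SEMA3E arrays were both higher, and the controls were a full log2 unit apart, so the value was 0.44 without control replicate 1 and 1.44 without control replicate 2. Psmg4, a chaperone of core assembly, read 0.00 and -0.64 in control and -0.77 and -0.65 with SEMA3E, a difference of -0.39 ± 0.29 that was -0.06 without control replicate 1.

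With cytochalasin D for 8 h proteasome genes also lay close to control, with a few bright subunits of the regulatory particle at their highest on 1 array. The median difference was -0.02 over the 42, -0.03 over the core and 0.05 over the regulatory particle, beside 0.03 over all genes, and 17 of 42 were above 0, beside 53.4%. The groups did not overlap in 6 genes with cytochalasin D higher, beside 15.9% of all genes, and in 3 with it lower, beside 13%. Of the core subunits 0 of 14 were apart in either direction. Psmd3, a subunit of the lid, read 3.64 and 3.92 in control and 4.10 and 4.75 with cytochalasin D, a difference of 0.64 ± 0.30 (adjusted p = 1). Psmd2, a scaffold that docks ubiquitin receptors, read 3.63 and 4.06 against 4.12 and 4.78, a difference of 0.61 ± 0.31. The ATPase Psmc1 read 4.0 and 4.39 against 4.43 and 4.84, a difference of 0.44 ± 0.29, while its other probe differed by -0.37. In all 3 genes the highest of the 8 values was cytochalasin D replicate 2, and without that array the differences were 0.32, 0.28 and 0.24.

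The catalytic subunits scattered on both sides of control with cytochalasin D. Psmb5 read 4.03 and 4.52, a difference of 0.30 ± 0.27, Psmb6 2.74 and 2.88, a difference of -0.04 ± 0.27, and Psmb7 1.15 and 0.78, a difference of 0.14 ± 0.31. Psmd14 differed by -0.01 ± 0.26 and Psmd4 by -0.01 ± 0.26. All 4 core assembly chaperones lay below 0 with all arrays, from -0.57 ± 0.38 for Psmg2 and -0.46 ± 0.34 for Psmg1 to -0.31 for Psmg4. Psmg2 read -1.48 and -2.10 in control and -2.42 and -2.30 with cytochalasin D, so both treated arrays were lower. Psmg1 read 2.61 and 1.72 in control and 1.76 and 1.64 with cytochalasin D, and its difference was -0.0178 without control replicate 1. Without that array Psmg2 lay at -0.26, Psmg3 at -0.037 and Psmg4 at 0.0145, so the shared direction was lost. Psmd5, a chaperone of the regulatory base, differed by -0.39 ± 0.30 and by -0.06 without cytochalasin D replicate 2.

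**Figure D4:**
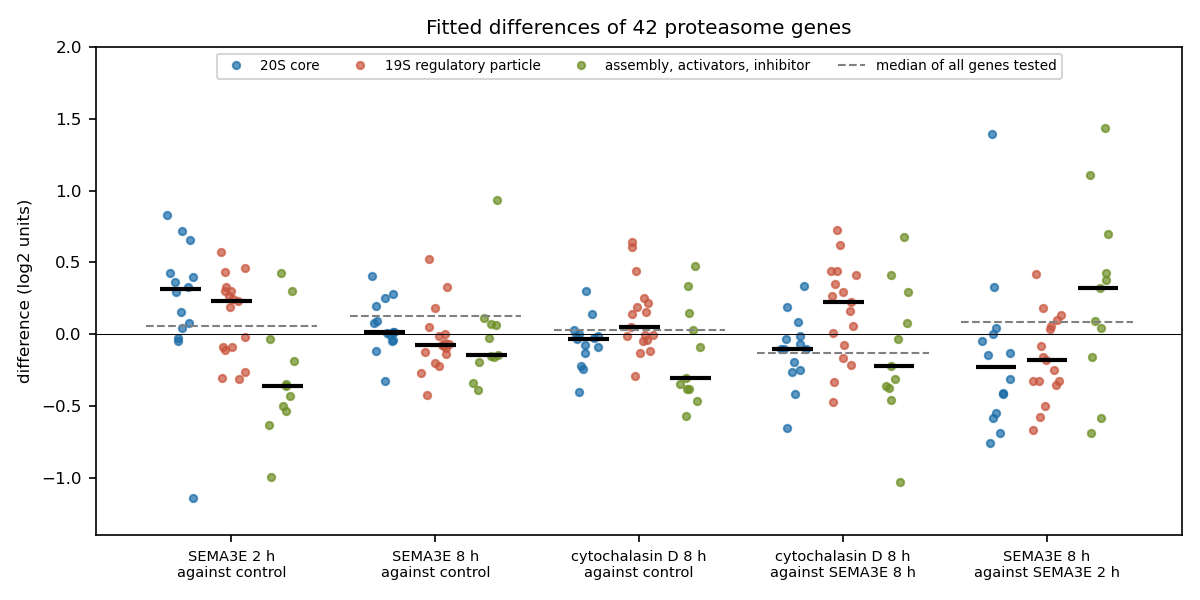
Fitted differences (log2) of the 42 proteasome genes in each of the 5 comparisons, as points by group; black bars are group medians and dashed lines the median of all genes tested. At SEMA3E 2 h against control the core median of 0.31 is above the dashed line, and at cytochalasin D against SEMA3E 8 h the core and regulatory medians are on opposite sides of 0, at -0.10 and 0.22.

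In the comparison matched for time, cytochalasin D against SEMA3E at 8 h, the core and regulatory medians lay on opposite sides of 0. The core had a median difference of -0.10, with 3 of 14 above 0. The regulatory particle had a median of 0.22, with 12 of 17 above 0. Over all genes tested the median was -0.13, with 39.7% above 0, and both rose with level. They were -0.30 and 28.8% below a level of -2, and 0.08 and 57.9% from 0 to 2. They were 0.10 and 59.7% from 2 to 3, and 0.11 and 67.1% above 3. All regulatory subunits and all core subunits but Psmb2 had levels above 0. Regulatory subunits lay at 0.01 from 0 to 2 and 0.44 above 3, and core subunits at -0.23 and -0.10. From 2 to 3 the order was the other way, with 1 regulatory subunit at -0.07 and 4 core subunits at -0.01. With the 75th percentile or the median of all probes as the scale, the core lay at 0.15 or 0.88. The regulatory particle then lay at 0.47 or 1.21 and all genes at 0.12 or 0.85. These scales moved both sets to the other side of 0 or further from it and left the gap between them. The core median minus the regulatory median was -0.33, beside 0.08, 0.09, -0.08 and -0.04 in the other comparisons in the order given above. With 1 array left out in turn it stayed between -0.33 and -0.20. Its place as the widest gap did not hold under other settings: with each gene's probes averaged it was -0.20, beside 0.33 at SEMA3E 2 h against control, and leaving out a control brought that comparison to 0.42 and cytochalasin D against control to -0.42. Array by array, the core median minus the regulatory median, each taken over deviations from the gene's mean, was 0.20 and -0.22 in control, 0.27 and 0.09 with SEMA3E for 2 h, 0.17 and 0.08 for 8 h and -0.18 and -0.19 with cytochalasin D. The cytochalasin D arrays were both below the SEMA3E arrays, and the controls spanned nearly the whole range, so that control replicate 2 lay lower than either cytochalasin D array. The pooled SD between replicates of this quantity was 0.16, and no test was made of it.

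**Figure D5:**
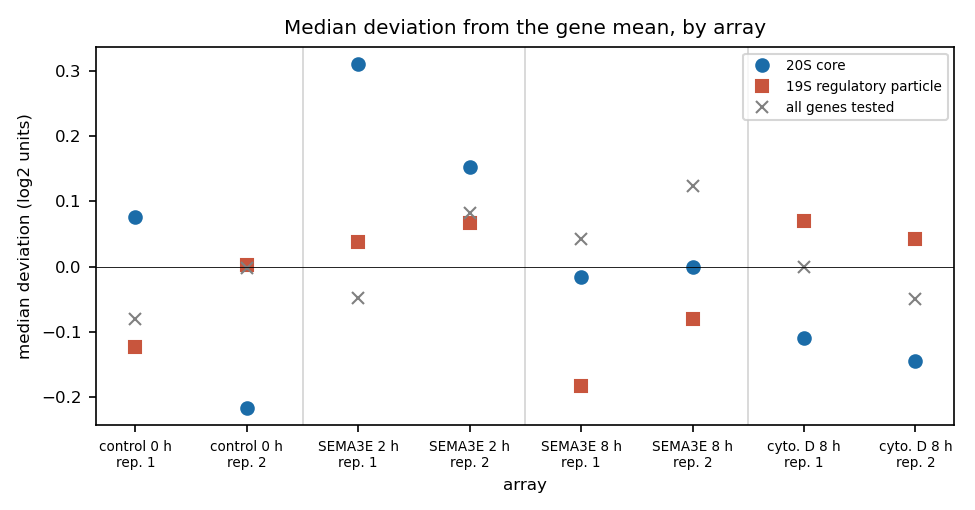
Median log2 deviation from the gene's mean over 8 arrays for the 14 core subunits, the 17 regulatory subunits and all genes tested, by array. The core point is above the regulatory point on 5 arrays and below it on control replicate 2 and both cytochalasin D arrays.

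Single genes differed in size and direction at 8 h, and several turned on 1 array. The groups did not overlap in 14 of the 42 genes with cytochalasin D higher and in 15 with it lower, beside 19.6% and 32.8% of all genes. Psmd3 read 3.65 and 3.76 with SEMA3E for 8 h, under both cytochalasin D arrays, a difference of 0.72 ± 0.30 (limma unadjusted p = 0.0435, adjusted p = 0.450), and 0.40 without cytochalasin D replicate 2. Psmd2 read 3.80 and 3.86 and differed by 0.62 ± 0.31. Psmd9, a chaperone of the regulatory base with a dim probe, read -2.04 and -1.54 with SEMA3E for 8 h and -1.0 and -1.22 with cytochalasin D, a difference of 0.68 ± 0.34, while its other probe differed by 0.0419. Psmd14 differed by 0.41 ± 0.26, both cytochalasin D arrays being higher at 2.14 and 1.8. On the other side Psmf1 read -2.57 and -3.82 with cytochalasin D, a difference of -1.03 ± 0.50 (adjusted p = 0.482) that was -0.40 without cytochalasin D replicate 2. Psmd13 differed by -0.47 ± 0.30 and Psmb4, a structural beta subunit, by -0.42 ± 0.30, and these were -0.14 and -0.11 without the same array. Psmb5 differed by 0.34 ± 0.27, Psmb6 by 0.08 ± 0.27, Psmb7 by -0.26 ± 0.31 and Psmd4 by 0.06 ± 0.26.

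In SEMA3E 8 h against 2 h the core median lay below 0. The 2 h arrays enter this comparison and that of 2 h against control with opposite sign. Against control the core median at 8 h was 0.02. The median difference of 8 h against 2 h was -0.23 over the core and -0.18 over the regulatory particle, beside 0.09 over all genes, of which 56.4% were above 0, and -0.36 over the 624 genes with levels above 3. With quantile normalization the core lay at -0.0308 and the regulatory particle at 0.0537, and with normexp correction and quantile normalization at 0.0411 and 0.0577, so the direction rested on the normalization. Arrays did not overlap in 6 of the 42 genes with 8 h higher and in 18 with 8 h lower, beside 27.9% and 22.6% of all genes. Psmb5 differed by -0.76 ± 0.27 (adjusted p = 0.411), Psma5 by -0.69 ± 0.27 and Psmc3 by -0.67 ± 0.25, and in each both 8 h arrays were below both 2 h arrays. Psmb6 differed by -0.41 ± 0.27, Psmb7 by 0.32 ± 0.31, Psmd4 by -0.50 ± 0.26 and Psmd14 by -0.16 ± 0.26. With its spot in shifted surroundings missing, Psmb7 read 1.15 and 1.40 at 8 h against 1.04 and 1.37 at 2 h on the scale of that fit. That was a difference of 0.07. Psmf1 read -3.87 and -3.35 at 2 h and -2.32 and -2.01 at 8 h, a difference of 1.44 ± 0.50 (95% interval 0.27 to 2.61, limma unadjusted p = 0.0227, adjusted p = 0.411). All its 8 h values were above its 2 h values, and it ranged from 1.18 to 1.70 with 1 array left out. Psme4 differed by 0.70 ± 0.36. Psma4 differed by 1.39 ± 0.73 as measured and by 0.13 ± 0.40 with the dim area's spots missing, and Psmd10 by 1.11 ± 0.62 and by 0.02 ± 0.31.

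The chaperones and activators differed among themselves in which group's replicates lay apart. The 3 regulatory particle chaperones, Psmd5, Psmd9 and Psmd10, were below 0 at 2 h of SEMA3E, with a median of -0.43, which includes Psmd10 in the dim area. Psme1 read 0.58 and 0.89 in control, 0.96 and -0.22 with SEMA3E for 2 h, 0.73 and 0.87 for 8 h and 1.27 and 1.15 with cytochalasin D. With its spot in the dim area missing, SEMA3E 2 h replicate 2 read 0.92 and replicate 1 read 1.01 on the scale of that fit, and the difference from control went from -0.36 ± 0.40 to 0.18 ± 0.24. Psme3, the nuclear activator PA28 gamma, spanned 0.47 to 1.03 over all arrays. Psmg3 read 1.46 and 0.77 in control, 1.70 and -0.55 with SEMA3E for 2 h, 0.92 and 0.99 for 8 h and 0.85 and 0.62 with cytochalasin D, so the SEMA3E 2 h arrays held both its highest and its lowest value. Several genes with a pair of probes had them on opposite sides of 0. At SEMA3E 2 h against control the probes of Psmc1 differed by 0.33 and -0.68 and those of Psmd12 by 0.30 and -0.50. From 2 h to 8 h of SEMA3E those of Psmc1 differed by -0.33 and 0.97 and those of Psmg1 by -0.58 and 0.79. The second Psmg1 probe sat in the dim area, where its spot had shifted by -1.39 and its neighbours by -2.35.

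Of the names outside the complex, Psmc3ip read between -2.71 and -1.96 on all arrays. Psme2b, whose probe could also read Psme2 itself, read 0.51 and -0.60 in control and -0.50 and -0.64 with cytochalasin D, a difference of -0.52 ± 0.39, and the controls bracketed all other arrays except cytochalasin D replicate 2.

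Of the immunoproteasome genes, which replace the catalytic subunits after interferon, Psmb8 was above background on 2 arrays and was not tested. Psmb10 read between -0.82 and -0.02 and differed from control by 0.41 ± 0.30 at 2 h and by -0.04 ± 0.30 at 8 h of SEMA3E and by -0.13 ± 0.30 with cytochalasin D; cytochalasin D differed from SEMA3E 8 h by -0.08 ± 0.30 and SEMA3E 8 h from 2 h by -0.45 ± 0.30. Psmb9 was dim, well above background on 4 arrays, and read -7.95 and -8.06 in control, -6.81 and -7.24 with SEMA3E for 2 h, -6.95 and -6.63 for 8 h and -8.35 and -9.08 with cytochalasin D. The SEMA3E arrays were the 4 highest. Cytochalasin D against SEMA3E 8 h differed by -1.92 ± 0.33 (limma unadjusted p = 0.000535, adjusted p = 0.341). The probe was well above background on 0 of 2 cytochalasin D arrays and 2 of 2 SEMA3E 8 h arrays, so the size of that difference is uncertain. Against control, which was measured above background on 1 of 2 arrays, cytochalasin D differed by -0.71 ± 0.33, with the same limit. SEMA3E at 2 h was above background on 1 of 2 arrays as well, so the differences from control of 0.98 ± 0.33 at 2 h and 1.22 ± 0.33 at 8 h, and of 0.24 ± 0.33 between 8 h and 2 h, rest in part on signals not well above background. With normexp background correction the difference of cytochalasin D from SEMA3E 8 h was 0.06 and that from control 0.41. The direction of both thus rested on how the background was treated.

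Genes that feed or surround the proteasome were taken from a list of 27, of which 24 were tested, including Psmb9 and Psmb10. Limma called 0 of 24 in each of the 5 comparisons. At an unadjusted p under 0.05 there were 4, 2, 0, 6 and 3 of 24 in the 5 comparisons, beside the shares of all genes given above. At 2 h of SEMA3E the small regulatory subunit Sem1 read 3.61 and 3.28 in control against 4.16 and 4.81, a difference of 1.04 ± 0.30 (adjusted p = 0.485). Pomp, the maturation factor of the core, read 2.46 and 1.77 against 2.89 and 2.70, a difference of 0.68 ± 0.30. Both genes read higher on each SEMA3E 2 h array than on either control, as Psmb5 and Psmb3 did and as 24.5% of all genes did. Their probes are bright, and 76.6% of all genes at levels from 2 to 3 and 89.1% above 3 differed above 0. Txnl1, a redox protein bound to the regulatory particle, differed by -1.18 ± 0.42. Nfe2l1, the transcription factor that raises proteasome genes when the protease is inhibited, read -6.06 and -3.97 in control and between -5.47 and -4.39 on the other arrays, so its controls alone spanned the rest. The related Nfe2l2 stayed between 1.36 and 1.99.

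Both factors bind antioxidant-response elements, so the promoters were searched on both strands for TGACNNNGC. RefSeq's table for GRCm38.p6 held 36 of the 44 symbols in 38 windows of 250 bases before to 50 after a gene's start. The letters occurred in 6 of 38 windows, 15.8%, beside 12.4% of 32851 windows of all genes, so the share among proteasome genes was near that of other genes. The symbols were Psmb5, Psmb6, Psmc6, Psmd12, Psmd9 and Psme4. CCAAT, searched on both strands too, occurred in 13 of 38, 34.2%, beside 37.4%, with Psma1, Psma2, Psma3, Psma6, Psma7 and Psmb3 among the core subunits tested. The stretches before the starts of 3 beta subunits are shown, as these carry catalytic sites or, for Psmb3, the largest difference above 0 among the 42 at 2 h; capitals mark the motif and each reads along the gene's strand.
Psmb5, chr14:54618014-54618062, minus strand: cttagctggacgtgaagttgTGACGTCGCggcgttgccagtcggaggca
Psmb6, chr11:70525328-70525356, plus strand: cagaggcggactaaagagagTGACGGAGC
Psmb3, chr11:97703371-97703415, plus strand: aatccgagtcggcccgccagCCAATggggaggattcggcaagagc
The genes with TGACNNNGC did not share a direction at 2 h of SEMA3E: Psmb5, Psmb6, Psmc6 and Psmd12 differed from control by 0.72, 0.30, 0.30 and 0.30, and Psmd9 and Psme4 by -0.43 and -0.64. The other probes of Psmd12 and Psme4 turned these directions, at -0.50 and 0.49, and that of Psmd9 lay at -0.0931.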

How the data were processed

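Per the labels, cRNA carrying Cy3 was made from total RNA of each sample and read on its own 1-colour mouse array. The authors deposited scanner files made with Agilent Feature Extraction 11.5.1.1, per the file headers. Their processed signal is a linear intensity, background-subtracted, detrended across the array and not scaled between arrays. A deposited table of intensity per gene name served as an alternative. The headers name build mm9 but give these probes no position, so genes have no coordinates here.

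Control spots (1439 of 62976) and spots marked as outliers were left out, and the log2 values of a probe's repeated spots were averaged, giving 55698 probes. Values are log2 intensity, computed from the deposited signals, minus each array's 75th percentile over 18687 probes well above background on all 8 arrays. A probe was tested when it had a value on every array and was well above background on both arrays of a group; a gene took its brightest such probe on average. Group means were fitted to all 18073 genes with limma 3.58.1 in R 4.3.3 (residual degrees of freedom 4, prior 3.40), with two-sided tests and Benjamini-Hochberg adjustment over all genes tested; the script was tested on simulated data. The median SE of a difference over all genes was 0.34. The number of arrays limits the precision. Figures and the neighbour shifts used Python 3.11.15, matplotlib 3.10.9, numpy 2.4.6 and pandas 2.3.3. The shift around a spot was taken where at least 8 neighbours of other probes lay above the 75th percentile on average.

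The genes, the list of related genes and the rule for naming were chosen with earlier results of these data known. The catalytic subunits, Psmd4, Psmd14, Psmb9 and Psmb10 were named in every comparison, with the 3 proteasome genes of smallest p in each direction; other genes are named for their place on the array or to describe a group, after their values were seen. The 3 comparisons with control share its arrays, as the comparisons with SEMA3E 2 h or 8 h share theirs. The labels do not say whether replicate numbers pair arrays. Over the 6 pairs of groups, deviations of same-numbered arrays correlated from -0.15 to 0.14 across genes. Features of single arrays such as the dim area enter these deviations, so the correlations cannot settle whether cultures were paired. Alternatives covered background correction, scaling, filters, probe choice, the deposited table, GC content, a replicate block, leaving out each array and, chosen after seeing the data, setting spots in shifted surroundings to missing.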

Additional observations from a re-analysis of the deposited data

How the results depend on the processing

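Limma called 0 of the 42 proteasome genes in every comparison under all alternatives but 1. Without SEMA3E 2 h replicate 1, which leaves replicate 2 alone, it called 2 in SEMA3E 2 h against control (Psma4 at -2.41 and Psmd10 at -2.09) beside 2.3% of all genes, and the same 2 in SEMA3E 8 h against 2 h, Psma4 at 2.66, beside 2.55%; the lone array was assumed to vary like the other groups, and its spots of both genes lie in the dim area. Of 1459 values of named genes under alternatives, 1397 kept their direction and their side of the threshold, 58 reversed and 4 came to pass it, one of them Psmb9 at SEMA3E 2 h with normexp correction at 1.04, a setting that called 3437 of the 18073 genes. Why values moved was not tested, except where an alternative only left out an array or spots.

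With normexp correction, Psmb7 at SEMA3E 2 h was -0.0795, Psmb10 at SEMA3E 8 h 0.0103, and Psmb9 0.41 with cytochalasin D against control, 0.0647 against SEMA3E 8 h and -0.69 at SEMA3E 8 h against 2 h; that correction moved the median of all genes at SEMA3E 2 h to 0.39. With normexp and quantile normalization, the median of the 42 genes was 0.0307 at SEMA3E 2 h and 0.0411 at 8 h against 2 h, Psmb7 and Psma7 at SEMA3E 2 h were -0.13 and -0.0287, and Psmb9 at 8 h against 2 h was -0.066. With quantile normalization alone, these medians were -0.11 and 0.0563, Psmb6 and Psmb7 at SEMA3E 2 h were -0.0008 and -0.0109, Psmb9 at 8 h against 2 h was -0.43, and Psmd4 between the 8 h groups was -0.0405.

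Scaling to the 75th percentile of all probes gave medians of -0.25 at SEMA3E 8 h, 0.22 between the 8 h groups and -0.40 at SEMA3E 8 h against 2 h. Psmd14 and Psmd4 with cytochalasin D were then 0.0224 and 0.0159, Psmb10 between the 8 h groups was 0.16 and Psmb9 at 8 h against 2 h was -0.023. Scaling to the median of all probes gave medians of -0.47 at SEMA3E 2 h, -1.19 at SEMA3E 8 h, -0.19 with cytochalasin D, 0.95 between the 8 h groups and -0.71 at 8 h against 2 h, moving with the median of all genes. Under that scale Psmb6, Psmb7, Psmd4 and Psmb10 were -0.30, -0.51, -0.16 and -0.18 at SEMA3E 2 h, and Psmb7, Psmf1 and Psmd13 were -0.76, -0.22 and -0.64 at SEMA3E 8 h. Psmb7 was -0.0369 with cytochalasin D against control, Psmb7, Psmb10, Psmd13 and Psmb4 were 0.72, 0.90, 0.51 and 0.57 between the 8 h groups, and Psmb7 and Psmb9 were -0.24 and -0.33 at 8 h against 2 h.

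When each gene's probes were averaged, the median was -0.0225 at SEMA3E 2 h and -0.033 at 8 h against 2 h, the core minus regulatory median at SEMA3E 2 h was 0.33, and Psmb5 at SEMA3E 8 h was 0.0045. With the deposited table these were -0.0888, 0.0466, 0.33 and 0.0157. With spots in shifted surroundings missing, the median at SEMA3E 2 h was 0.18, Psma4 0.12 and Psmd10 0.10, and Psmd14 with cytochalasin D was 0.0022. With a trend on GC content removed, Psmb10 between the 8 h groups was 0.11, and it was 0.11 with the replicate block as well.

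With each array left out in turn, the median of the 42 ranged from 0.0707 to 0.19 at SEMA3E 2 h, -0.051 to 0.0392 at SEMA3E 8 h, -0.0952 to 0.0337 with cytochalasin D and -0.18 to -0.071 at 8 h against 2 h. The core minus regulatory median ranged from -0.0687 to 0.42 at SEMA3E 2 h and -0.42 to 0.0449 with cytochalasin D, the ends being set by leaving out a control. The number of genes called ranged from 0 to 2 in SEMA3E 2 h against control and in 8 h against 2 h. At SEMA3E 2 h, Psmb7 ranged from -0.22 to 0.37, Psmd10 from -2.09 to 0.10 and Psma4 from -2.41 to 0.13, and Psma4 at 8 h against 2 h from 0.12 to 2.66. At SEMA3E 8 h the ranges were -0.16 to 0.0841 for Psmb5, -0.33 to 0.0938 for Psmb6, -0.29 to 0.15 for Psmd4 and -0.35 to 0.26 for Psmb10. With cytochalasin D against control they were -0.25 to 0.18 for Psmb6, -0.15 to 0.44 for Psmb7, -0.24 to 0.21 for Psmd4, -0.17 to 0.16 for Psmd14 and -0.44 to 0.18 for Psmb10. Between the 8 h groups they were -0.0008 to 0.17 for Psmb6 and -0.23 to 0.0577 for Psmb10.

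The replicate number as a block left 0 of the 42 genes called in each comparison and changed no other call of them. The medians stayed at 0.12 at SEMA3E 2 h and -0.03 at SEMA3E 8 h, and over all genes the block called 7 at SEMA3E 8 h against control in place of 1. With 2 arrays a group, the 95% interval of a difference smaller than about 0.66 usually included 0, and dim genes such as Psmb9 depended on how background was treated.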

Other observations

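The dim area of SEMA3E 2 h replicate 2 touched many genes beside those of the proteasome. Of the 18073 genes tested, 1789 (9.9%) were read only by spots in shifted surroundings. Of the 1418 genes over 2-fold lower on replicate 2 than on replicate 1 of SEMA3E 2 h, 63.5% were among them. When replicate 1 was left out, limma called 385 genes lower and 31 higher against control at an adjusted p under 0.05, and 96.9% of the former and 25.8% of the latter were read in the area. On the 7 other arrays the share of spots with neighbours shifted below -0.5 was at most 0.397%.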
